A study of Mus musculus with 2 samples.

Results

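The TSC22 domain family comprises 4 genes in the mouse, Tsc22d1, Tsc22d2, Tsc22d3 and Tsc22d4, and GATA4 occupancy around them was examined in whole liver of adult mice. A GATA4 occupied site (OS) was counted for a gene when the midpoint of its peak lay in the gene body or within 50 kb of it (GENCODE M1 annotation, mm9). The sites were thus chosen by the position of the measured peaks. Only 3 of the 4409 OS of the common peak list met this rule, and all 3 lay at Tsc22d3 on chromosome X. No common OS was found at Tsc22d1, Tsc22d2 or Tsc22d4. With the window used, 27.7% of the 22380 protein-coding genes had at least 1 common OS and 3.24% had at least 3. As the genes had been picked with the peak lists known, nothing was tested on these counts.

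One ChIP sample and one input sample, DNA that was not immunoprecipitated, were listed, both from liver of C57BL/6 x Sv129 mice aged 2 to 3 months by the labels, which give no treatment and no genetic change. The methods give a slightly later age range for the ChIP livers. The antibody was the polyclonal anti-GATA4 C-20. By the methods, the ChIP was made on a pair of biological replicates, each from the livers of a pair of mice. Peaks were called in each replicate and in the merged reads, and those ranked alike in both replicates were kept. Each list used here is the outcome of that step and holds no values by replicate, and no read count or usable peak score was available to give the depth behind a site. Because whole liver was used, the peak lists alone do not tell in which cell type a site was occupied. The paper reports that excising Gata4 in hepatocytes removed nearly all GATA4 from the sites it examined by ChIP-qPCR. This held in purified hepatocytes and in the preparation of all liver cell types. Those sites were at the genes for factor X, FOG1, HNF4α and HNF6. The paper concludes that GATA4 occupied these genes in hepatocytes only. The paper also lists Tsc22d3 among genes raised in hepatocytes after that excision, at a relaxed false discovery rate. Tsc22d3 is absent from its list of changed genes with an OS after excision of both Gata4 and Gata6. No RT-qPCR primers for Tsc22d3 are listed. Its list gives intervals there at OS 1920 and OS 4318. OS at liver cell markers were counted in the same way and are to be read against the 27.7% of all protein-coding genes with an OS. The marker lists were chosen with earlier results of these data known and were not matched for gene length, which widens the window. Gene bodies span 12347 to 166828 bp in the endothelial list and 1887 to 108234 bp in the hepatocyte list. Reln of the stellate cell list spans 460252 bp, and the median protein-coding gene 15420.5 bp. All 6 genes of the list for sinusoidal endothelium (Stab2, Lyve1, Ptprb, Kdr, Tek and Eng) had at least 1, with 27 OS between them. Of the hepatocyte list, 3 of 5 genes (Alb, Ttr and Cps1) had one, whereas 0 of 4 stellate cell and 0 of 4 Kupffer cell markers did, and 1 of 3 heart muscle markers (Myh6) had one. The part of each cell type in the occupancy at Tsc22d3 was not tested.

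GATA4 is a zinc finger transcription factor that recognizes the sequence WGATAR, where W is A or T and R is A or G. TSC22 domain proteins carry a conserved TSC box followed by a leucine zipper, through which they form dimers, and most of their genes give rise to long and short isoforms from separate promoters. Tsc22d1 encodes TSC-22, first described as a transcript induced by TGF-beta. Tsc22d3 encodes GILZ, the glucocorticoid-induced leucine zipper, which mediates part of the anti-inflammatory action of glucocorticoids. Tsc22d4 has been linked to lipid and glucose metabolism in hepatocytes, and Tsc22d2 is the least studied of the family.

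The sequences of the 3 OS at Tsc22d3 are shown because all carry WGATAR near the middle of the peak. They are written 5′ to 3′ on the plus strand of mm9 with each WGATAR in capitals. A WGATAR on the minus strand appears in its reverse complement. Tsc22d3 is transcribed from the minus strand. For the wider OS 2794 and 4318, the central 300 bp are given (chrX:137025813-137026112 and chrX:137102338-137102637), while OS 1920 is whole (chrX:137067023-137067176).

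OS 4318: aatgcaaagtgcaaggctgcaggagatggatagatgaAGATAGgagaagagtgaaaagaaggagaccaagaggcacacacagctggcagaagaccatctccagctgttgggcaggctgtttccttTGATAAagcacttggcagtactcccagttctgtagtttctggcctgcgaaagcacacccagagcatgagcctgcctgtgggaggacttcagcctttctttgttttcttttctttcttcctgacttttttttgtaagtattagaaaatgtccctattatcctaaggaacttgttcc

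OS 1920: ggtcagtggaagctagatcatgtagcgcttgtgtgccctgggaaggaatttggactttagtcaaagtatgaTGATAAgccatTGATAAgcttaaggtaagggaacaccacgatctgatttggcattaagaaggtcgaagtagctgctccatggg

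OS 2794: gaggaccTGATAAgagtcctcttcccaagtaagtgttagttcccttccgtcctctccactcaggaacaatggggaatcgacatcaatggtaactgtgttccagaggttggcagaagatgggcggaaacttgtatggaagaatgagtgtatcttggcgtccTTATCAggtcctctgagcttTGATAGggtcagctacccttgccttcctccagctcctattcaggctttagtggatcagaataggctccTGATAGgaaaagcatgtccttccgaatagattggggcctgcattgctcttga

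Tsc22d3 (ENSMUSG00000031431.7) spans 137074067 to 137135198 on chromosome X. Its long coding transcript, Tsc22d3-006, starts at 137135198 and has 201 codons in 4 exons. The short transcript Tsc22d3-001 starts at 137077726 and has 137 codons, and a further coding transcript, Tsc22d3-005, with 113 codons, starts at 137082877. OS 4318 (137102328 to 137102647, 320 bp) was located within intron 2 of Tsc22d3-006, which is 55971 bp long. Its midpoint was 32710 bp downstream of the long TSS and 24761 bp upstream of the short one, so that it lay between both promoters and in no exon. OS 1920 (137067023 to 137067176, 154 bp) was intergenic, 6967 bp past the 3′ end of the gene. OS 2794 (137025803 to 137026122, 320 bp) was intergenic as well, 48104 bp past the 3′ end, just within the 50 kb limit.

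**Figure D1:**
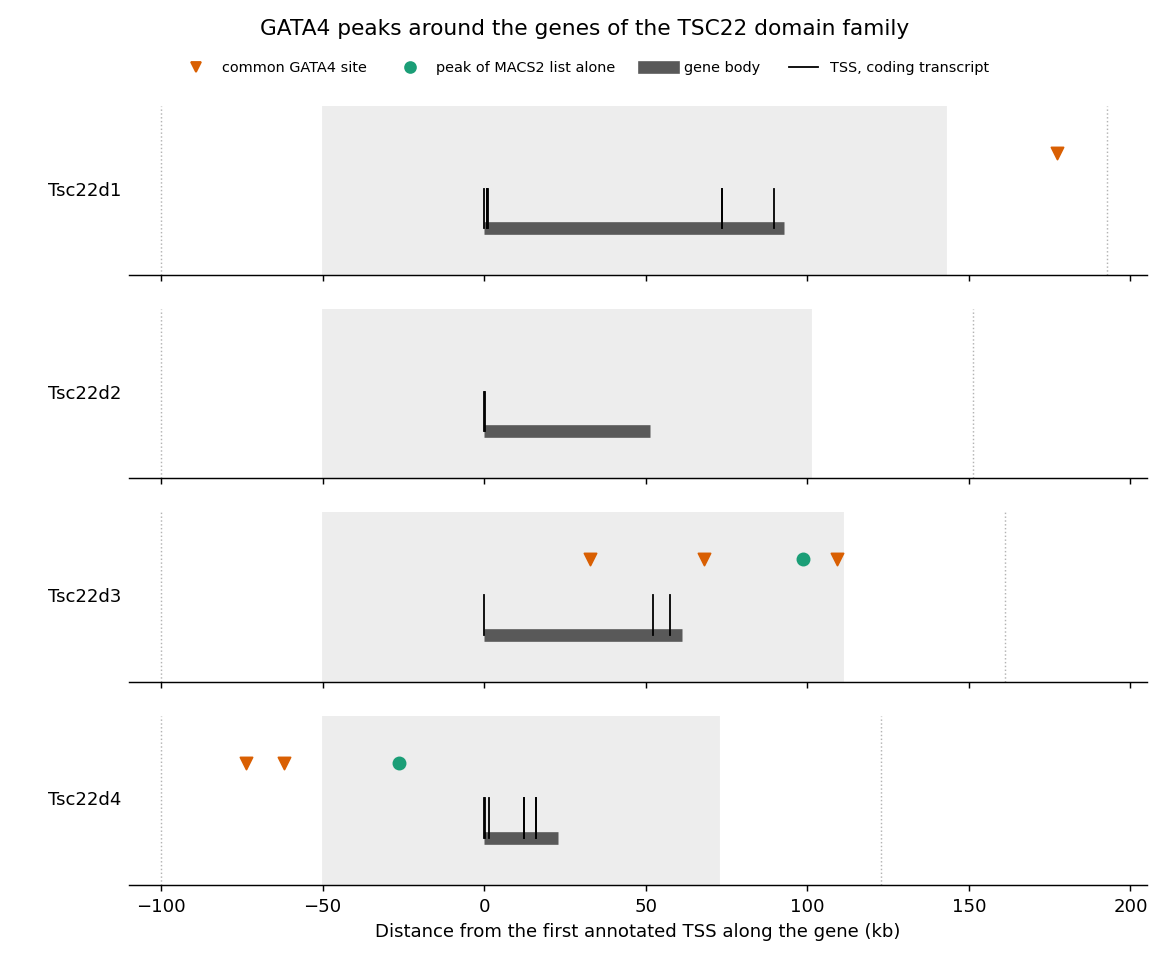
Positions of GATA4 peaks around the 4 genes, as distance in kb from the first annotated TSS in the direction of transcription. The shaded area is the gene body with 50 kb on either side and dotted lines mark 100 kb. Triangles are common OS, circles are peaks found by MACS2 alone, thick bars are gene bodies and vertical ticks are TSSs of coding transcripts. The 3 common OS within the limit all belong to Tsc22d3.

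For 2 of the 3 OS the nearest TSS of any annotated gene was one of Tsc22d3. OS 4318 was 19419 bp upstream of the non-coding transcript Tsc22d3-004, and OS 1920 was 10107 bp downstream of Tsc22d3-003. OS 2794 was nearer to the TSS of Prps1, which encodes a phosphoribosyl pyrophosphate synthetase. It lay 34810 bp downstream of that TSS and 15283 bp past the end of the Prps1 gene body, and was the only common OS within 50 kb of Prps1. The midpoints of OS 2794 and OS 1920 were 41137 bp apart, and those of OS 1920 and OS 4318 were 35388 bp apart. No TSS of Tsc22d3 lay closer than 10107 bp to any of the 3 midpoints.

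Chromosome X carried few GATA4 OS. It had 30 of the 4409 common OS, or 0.18 per Mb, compared to 1.77 per Mb on the autosomes. The labels do not give the sex of the mice, so the number of X chromosomes per cell is not known. Tsc22d3 was the only one of 932 protein-coding genes on chromosome X with 3 common OS in its window, and none had more. Its count includes OS 2794, which was 48104 bp away and nearer to the TSS of Prps1. With a reach of 10 kb Tsc22d3 had 2, and other X-linked genes were not compared at that reach. In the MACS2 list, 2 genes of the chromosome had 3 or more peaks, with a maximum of 4. In the common list, another 5 genes of the chromosome had 2 OS and 31 had 1. The next X-linked OS lay 5860 kb from OS 2794 on one side and 1330 kb from OS 4318 on the other. Over the genome, exactly 3 common OS were found at 492 protein-coding genes (2.2%). A longer gene body makes for a wider window, and 17.9% of protein-coding genes are longer than Tsc22d3. The 5 genes with 3 OS closest to it in length were Aass (an enzyme of lysine degradation), Tpst1 (a tyrosylprotein sulfotransferase), Epn2 (an endocytic adaptor), Clec1a (a C-type lectin) and Pinx1 (a telomerase inhibitor). Their gene bodies differed from that of Tsc22d3 by 318 to 1584 bp. Of their 3 OS each, 0 to 2 were in the gene body, against 1 for Tsc22d3.

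**Figure D2:**
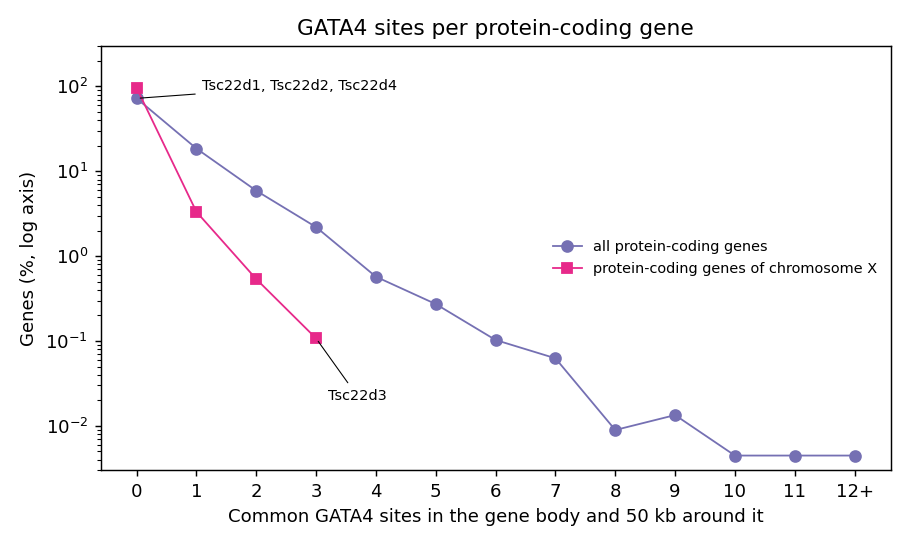
Share of protein-coding genes (%, log axis) by the number of common GATA4 OS in the gene body and 50 kb around it, for all genes (circles, n = 22380) and for genes of chromosome X (squares, n = 932). Tsc22d3 is the single X-linked gene with 3 OS, while Tsc22d1, Tsc22d2 and Tsc22d4 are among the 72.3% of all genes with none.

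The 3 OS were found by SPP and by MACS2, as is each common OS by construction. Each was covered by a MACS2 peak over 99.7 to 100% of its width, with midpoints 21 to 49 bp apart. In the common list, OS 1920 came first at number 1920 of 4409 (43.5% down the list). The others were at 63.4% (number 2794) and 97.9% (number 4318). The overlapping MACS2 peaks held positions 2731, 3205 and 5112 of 5867, which kept the 3 OS in the same order. The median common OS is number 2205, so only OS 1920 came before the middle. The files do not say what the numbers follow, and the score of 1000 on each peak carries no strength. OS 2794 and OS 4318 had the commonest width of the list, 320 bp, shared by 1127 OS, of which 1051 came after the middle of the list. For comparison, the common OS of chromosome X had a median number of 3050 and those of the other chromosomes one of 2198.

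**Figure D3:**
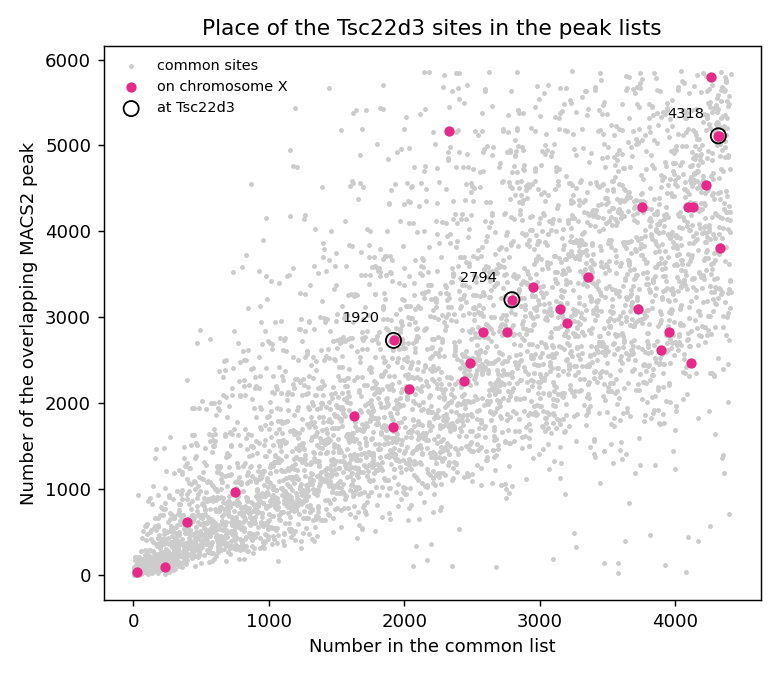
Number of each common OS in the common list (x axis) against the number of the MACS2 peak that overlaps it (y axis). Grey points are all 4409 common OS, filled points the 30 on chromosome X and open circles the 3 at Tsc22d3, which lie at 1920, 2794 and 4318 of the common list.

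WGATAR was present in 3 of the 3 OS at Tsc22d3 (exact binomial 95% interval 29.2 to 100%), compared to 82.9% of all common OS. With 3 sites, this share cannot be distinguished from that of the full list. Windows of the same widths 5 kb to the right held WGATAR in 1 of 3 cases. For all common OS, 45.5% of windows of 320 bp placed 5 kb to the right held it. The number of matches per OS was 2 in OS 1920, 2 in OS 4318 and 4 in OS 2794. Among all common OS, 24.9% had 2 matches and 1.61% had 4. These counts cover the whole site, and OS 2794 and OS 4318 are 320 bp wide, compared to a median of 190 bp over all common OS. The match closest to the peak midpoint was 3 bp from it in OS 1920, 13 bp in OS 2794 and 22 bp in OS 4318, and the median over all common OS with a match was 18.0 bp.

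In OS 1920, both matches were TGATAA on the plus strand, at 137067094 and 137067105. They form a direct repeat with starts 11 bp apart and 5 bases between them, seen in the sequence above as the pair of capital blocks. A pair of WGATAR on the same strand at this distance was present in 11 of the 4409 common OS (0.249%), and in 3 of these both copies were TGATAA. This spacing was looked up after the sequence had been seen. In OS 2794, TGATAA on the minus strand (137025973) and TGATAG on the plus strand (137025993) were the central matches, with a second TGATAA 140 bp to the left of the midpoint and a second TGATAG 101 bp to the right. OS 4318 held TGATAA at 137102463 and AGATAG at 137102375. TGATAA was thus present in each of the 3 OS and made up 5 of their 8 matches, while AGATAA made up 0 of 8. Among the 5734 matches in all common OS, TGATAA accounted for 26.8% and AGATAA, the most frequent form, for 44.6%. In the 2 peaks that MACS2 alone found at the family, TGATAA made up 0 of 8 matches and AGATAA 4 of 8. Matches within an OS are not independent of each other, and OS 2794 alone held 4 of the 8 in the OS at Tsc22d3. The share of all common OS that hold TGATAA is not given here. Comparing the forms of the motif was not planned beforehand.

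**Figure D4:**
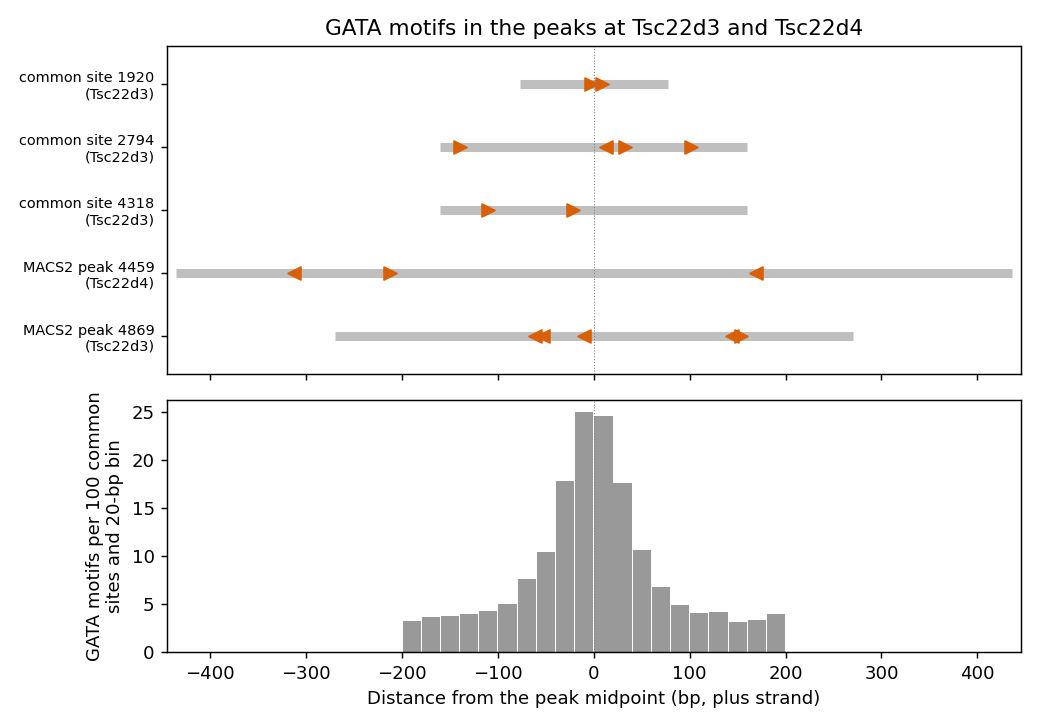
Top, GATA motif (WGATAR) matches in the 3 common OS at Tsc22d3 and in the 2 peaks found by MACS2 alone, as distance in bp from the peak midpoint. Bars give the peak width, and triangles point to the right for the plus strand and to the left for the minus strand. Bottom, WGATAR matches per 100 common OS in bins of 20 bp, which rise to 24.6 or more in both bins beside the midpoint.

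Other motifs were searched in 320 bp around each midpoint on both strands. The ETS core AGGAAG or CGGAAG was matched 3 times in OS 2794 and 1 time in OS 4318 but not in OS 1920. It was present in 60.7% of all common OS and in 36.5% of windows 5 kb to the right. An E-box, CANNTG, was present in OS 1920 (1 match) and OS 4318 (3 matches), compared to 79.1% of common OS and 83.2% of windows to the right. No match was found to the forkhead motif TGTTTAC or TATTTAC (12.7% of common OS and 9.66% of windows), to the AP-1 motif TGANTCA (11.3% and 8.87%) or to the hexamer TGTTCT of the glucocorticoid receptor (26.9% and 25.7%). The full receptor palindrome, which contains that hexamer, was not matched either, and 0.068% of common OS held it. Matches of the other motifs may share bases at their ends. GC content was 45 to 47.5% in the 3 OS and 49.38% in the median common OS. They held 1 to 5 CpG, with a median of 3 per site in the full list.

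The MACS2 list added 1 peak at Tsc22d3 and 1 at Tsc22d4 that SPP did not call. At least 1 MACS2 peak was present within the same window at 33.9% of protein-coding genes. MACS2 peak 4869 (chrX:137036292-137036831, 540 bp) lay between OS 2794 and OS 1920, 37505 bp past the 3′ end of Tsc22d3, with Tsc22d3-003 as its nearest TSS. It held 5 WGATAR matches, 3 of them within 61 bp of the midpoint. MACS2 peak 4459 (chr5:138160058-138160929, 872 bp) lay 26464 bp upstream of the first Tsc22d4 TSS in intergenic sequence. It was nearer to 6430598A04Rik, a protein-coding gene whose TSS was 20732 bp away, and nearest to the pseudogene Gm15753 at 2474 bp. Its 3 WGATAR matches were 169 to 313 bp from the midpoint. WGATAR was present in 85.0% of the 1496 MACS2 peaks that met no common OS, with the closest match a median of 62.5 bp from the midpoint. For comparison with the common OS, the match nearest to the midpoint of each is given within 60 bp of sequence (chrX:137036522-137036581 and chr5:138160633-138160692).

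MACS2 peak 4869: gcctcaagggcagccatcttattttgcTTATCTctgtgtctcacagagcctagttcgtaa

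MACS2 peak 4459: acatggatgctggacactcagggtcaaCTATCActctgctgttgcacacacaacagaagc

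The genes without a common OS differ in how far the nearest one lay. At Tsc22d4 (chr5:138186958-138209678, ENSMUSG00000029723.9), it was OS 524, 62081 bp upstream, the first site outside the 50 kb limit and number 524 of the common list. OS 4054 followed at 73799 bp. Both OS lay within the gene body of Agfg2, a gene with 3 common OS in its own window, and OS 524 was 1031 bp downstream of an Agfg2 TSS. Neither held WGATAR, and each had 1 GATA tetranucleotide. At Tsc22d1 (chr14:76814768-76907569, ENSMUSG00000022010.11), the nearest common OS was number 4061, 84490 bp past the 3′ end. It held 1 WGATAR and was closer to Serp2, 35394 bp upstream of its TSS. At Tsc22d2 (chr3:58219437-58270709, ENSMUSG00000027806.4), no peak of any list lay within 100 kb, and the nearest common OS, number 532, was 119564 bp away. Tsc22d1 is the longest of the 4 genes, with a body of 92802 bp, 7 coding transcripts of 107 to 1077 codons and TSSs spread from 76814768 to 76904317. None of these had a common OS within 50 kb.

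WGATAR occurred throughout the windows of the 4 genes. The window of the gene body with 50 kb on either side held 424 matches at Tsc22d1 (2.2 per kb), 392 at Tsc22d2 (2.59 per kb), 356 at Tsc22d3 (2.21 per kb) and 235 at Tsc22d4 (1.91 per kb). Of the 356 at Tsc22d3, 8 fell within its common OS. Most of each window could be read by uniquely placed reads as far as exact words tell: 91.9 to 98.2% of 48-base words occurred 1 time in the genome, lowest at Tsc22d4 and highest at Tsc22d1. In the 3 OS at Tsc22d3 and both MACS2 peaks, 100% of words were unique.

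Genes that act with the family were counted in the same way, in lists drawn up with earlier results of these data known. Neither these lists nor that of glucocorticoid response genes below were matched for gene length, which widens the window. Over all protein-coding genes, 27.7% had a common OS within 50 kb and 13.7% within 10 kb, and the median number within 50 kb was 0. The NRBP pseudokinases and WNK kinases bind TSC22 domain proteins in the control of cell volume and salt transport. The list held Nrbp1, Nrbp2, Wnk1, Wnk2 and Wnk4, and also Stk39 and Oxsr1, which encode neither. Of these 7 genes, Nrbp1, Wnk1, Wnk2 and Wnk4 had a common OS within 50 kb (1, 1, 1 and 2 OS). The list median was 1, and 0 had one within 10 kb. Wnk3 was not matched as a protein-coding gene and was left out. Of 8 genes for factors bound by GILZ or TSC-22, 4 had 1 OS each, namely Nfkb1, Jun, Smad3 and Smad4, and 3 of them had it within 10 kb. The list median was 0.5. Rela, which encodes the NF-kB subunit p65, had none in either list.

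Of 13 glucocorticoid response genes, 10 had a common OS within 50 kb and 8 within 10 kb, compared to the same 27.7% and 13.7%. Tsc22d3, whose OS were known beforehand, is one of them. Of the 12 others, 9 had an OS within 50 kb and 7 within 10 kb, with a median of 1. No test was made. Gene bodies of the list span 950 bp (Mt2) to 181635 bp (Zbtb16), and the median protein-coding gene 15420.5 bp. Zbtb16, a zinc finger repressor, had 4 OS, all in its gene body and at numbers 93 to 996 of the list. Nr3c1, which encodes the glucocorticoid receptor, had 2, at numbers 409 and 4158. Sgk1, a kinase that regulates ion transport, and the clock gene Per1 had 2 each. Dusp1, Klf9 and G6pc had 1 each, and Mt1 and Mt2, the metallothionein genes, shared a single OS. Fkbp5, Tat and Pck1 had none. Lcn13, a lipocalin gene linked with Tsc22d4 in liver, had none in either list.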

How the data were processed

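The members of the TSC22 domain family and the gene lists were chosen with earlier results of these data known. Before they deposited the files, the authors aligned reads to mm9 with Bowtie 0.12.7, kept uniquely mapped reads, called peaks in each replicate and in the merged replicates against pooled input with a modified SPP and MACS2 2.0.10, kept peaks of concordant rank between replicates (irreproducible discovery rate, IDR), and intersected both lists with bedtools 2.16.1, keeping SPP coordinates. The score the authors deposited is 1000 on every line and was not used. The number in each peak name equals its line in the list.

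Coordinates were made 1-based. Genes were the 22380 protein-coding genes among 37310 of GENCODE M1, and sequence came from NCBI Build 37, which is mm9. Overlap was at least 1 bp. Motifs were matched exactly on both strands. Intervals are exact binomial and cover counting error only. No hypothesis test was made. Every site of the 4 genes is named, as is the gene with the nearest TSS. Of the gene lists, genes with a site were named, and those singled out for having none were chosen after their values were seen. Genes like Tsc22d3 were the 5 with the same number of sites and the closest length. Searching and counting were tested on simulated data. Python 3.11.15, pandas 2.3.3, scipy 1.17.1, pysam 0.24.0 and matplotlib 3.10.9 were used.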

Additional observations from a re-analysis of the deposited data

How the results depend on the processing

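The count of 3 common OS at the family depended on the reach. It was 1 in gene bodies alone, 1 with a reach of 5 kb, 2 with 10 kb and 6 with 100 kb, where Tsc22d1 gained 1 and Tsc22d4 gained 2. The MACS2 list gave 5 peaks, with 1 at Tsc22d4, and OS in the first 50% of the common list gave 1. Any overlap in place of the midpoint, coding transcripts alone and the SPP list each left the count at 3. Tsc22d2 had 0 under each of the 5 alternatives tried for single genes (reach of 10 or 100 kb, the SPP list, the MACS2 list and coding transcripts alone). WGATAR was found in 3 of 3 OS in the central 100, 200 and 500 bp, and in 5 of 5 MACS2 peaks. It was found in 1 of 3 windows 5 kb to the right, compared to 45.5% of 320-bp windows so placed for all common OS. The median position of the OS was 63.4% down the common list and 54.6% down the MACS2 list. The number of OS met by a MACS2 peak stayed at 3 and that of OS nearest to a TSS of the family at 2 under each alternative tried. With one final list per caller, no replicate could be left out, and an undetected site may lie below the threshold of the peak calls.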
